A study of Mus musculus with 6 samples.

Results

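Haem synthesis was followed through the RNA of 8 enzymes, Alas1, Alas2, Alad, Uros, Urod, Cpox, Ppox and Fech, chosen by gene symbol from the 47643 genes of the deposited table. All 8 symbols were found, each on 1 gene. The data were RNA-seq of leukaemic granulocyte-macrophage progenitors (L-GMP) sorted from C57BL/6 mice, a leukaemic counterpart of the progenitor from which granulocytes and monocytes arise. The 3 KO libraries came from cells labelled as double knockout for Prkaa1 and Prkaa2, which encode the catalytic alpha subunits of AMPK, a kinase that senses low cellular energy. The 3 WT libraries came from L-GMP of wild-type mice. The series title asks how AMPK connects acetyl-CoA supply with the recruitment of BET proteins in acute myeloid leukaemia. The labels name no driving oncogene, Cre line, age or number of mice and do not say that replicates were separate animals, so the p-values below rest on a spread between libraries that may be technical alone.

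Haem is iron held in a porphyrin ring, and it serves as the cofactor of haemoglobin, cytochromes, peroxidases, catalase and the phagocyte NADPH oxidase. Its synthesis begins in the mitochondrion, where aminolaevulinate synthase (ALAS) joins glycine to succinyl-CoA, continues in the cytosol from porphobilinogen to coproporphyrinogen, and ends in the mitochondrion with the insertion of iron. Most cells use the ALAS1 isoenzyme, which haem itself represses, whereas erythroid cells use ALAS2, a target of the transcription factor GATA1. Myeloid progenitors also make haem, among other uses for myeloperoxidase.

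RefSeq promoter windows (build GRCm38.p6) were found for 7 of the 8 enzymes, as 10 windows of the 250 bases before an annotated start. For each of 4 genes 1 window is shown, because they separate the isoenzymes Alas1 and Alas2 and the enzymes Cpox and Uros, which had the largest ratios of KO to WT. Capitals in the Alas2, Cpox and Uros windows mark matches, on either strand, to TGATAA or AGATAA, the letters that GATA factors bind. In the Alas1 window capitals mark matches on either strand to CGCANGCG, the core letters bound by NRF1, a factor that drives nuclear genes of mitochondria.
Alas1, chr9:106247731-106247980, minus strand: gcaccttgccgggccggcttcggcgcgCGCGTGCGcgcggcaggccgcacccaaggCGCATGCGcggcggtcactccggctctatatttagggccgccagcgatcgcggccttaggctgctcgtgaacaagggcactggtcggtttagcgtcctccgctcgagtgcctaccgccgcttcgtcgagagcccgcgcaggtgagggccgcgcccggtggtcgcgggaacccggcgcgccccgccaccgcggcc
Alas2, chrX:150547167-150547416, plus strand: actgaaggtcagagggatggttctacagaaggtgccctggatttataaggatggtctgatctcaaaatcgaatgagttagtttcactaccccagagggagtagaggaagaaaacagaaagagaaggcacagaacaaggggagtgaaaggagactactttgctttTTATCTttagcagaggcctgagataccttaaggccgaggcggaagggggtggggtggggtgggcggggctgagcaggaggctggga
Cpox, chr16:58669958-58670207, plus strand: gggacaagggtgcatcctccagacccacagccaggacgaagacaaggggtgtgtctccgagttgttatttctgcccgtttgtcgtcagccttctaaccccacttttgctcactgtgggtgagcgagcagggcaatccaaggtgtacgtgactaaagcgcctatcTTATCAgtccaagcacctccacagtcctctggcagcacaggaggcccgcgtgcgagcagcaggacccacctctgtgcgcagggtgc
Uros, chr7:133702501-133702750, minus strand: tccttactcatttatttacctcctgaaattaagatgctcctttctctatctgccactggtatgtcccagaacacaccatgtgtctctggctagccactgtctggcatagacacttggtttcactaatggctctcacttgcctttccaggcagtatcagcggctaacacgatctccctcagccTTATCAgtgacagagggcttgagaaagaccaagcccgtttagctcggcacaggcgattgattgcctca

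The GATA letters began 86 bases before the start in both the Alas2 and the Cpox window, and 68 bases before the start in the Uros window. The Uros window belongs to the downstream of its 2 annotated starts; in the mouse, erythroid Uros transcripts are known to begin at a downstream promoter of their own, which values per gene cannot separate from the general one. Of the 10 windows 3 held a GATA match, against 16.6% of 32851 windows of the same length genome-wide. A match to the NRF1 core was found in 3 windows, that of Alas1 with 2 matches, the upstream window of Uros and that of Cpox, against 6.76% of all windows. The antioxidant response core TGACNNNGC, through which NRF2 acts, was in 0 of the 10, against 10.2% of all windows. The Alas1 window shown was 74.4% G or C with 42 CpG pairs, and the Alas2 window 51.2% with 4, where the median window had 52.4% and 6. The other Alas1 window, upstream of the one shown, was 62.4% G or C with 16 CpG pairs and held 0 matches to the GATA letters or the NRF1 core. Windows of 1 gene can overlap and are not independent. These matches describe the letters and show neither binding nor its absence.

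The RNA of the targeted genes gave a partial check of the labels. Prkaa1 had 1.11, 0.735 and 0.548 FPKM in KO replicates 1, 2 and 3, against 2.01, 2.20 and 1.80 FPKM in the WT replicates. Its RNA was thus lower in KO but not absent, with 138 reads in KO and 422 in WT. Prkaa2 had 4 reads in KO and 2 in WT, too few to check its label. FPKM is the read number scaled by gene length and by a factor for each library. Levels of different genes can be compared on it only as far as the lengths used fit the transcripts present. For Alas1, Cpox and Fech the values did not give whole reads at GENCODE exonic lengths, so the order of enzyme levels is approximate. The values at GENCODE exonic lengths were whole reads, within a tolerance of 0.01, for 76.2 to 76.9% of genes above 0. Those genes alone held 9084223, 8100318 and 9141337 reads in KO and 7837252, 11246630 and 8712800 in WT. For Alas2, 3 reads would be 0.0976 FPKM in KO replicate 1 and 0.0982 FPKM in WT replicate 1. The library factor thus did not follow these read totals alone. Of 9 markers of granulocyte-macrophage progenitors, 9 averaged at least 1 FPKM in KO and 8 in WT, Kit being below 1 FPKM in WT. Their levels differed between genotypes in both directions: Elane averaged 7923 FPKM in KO and 1758 FPKM in WT and Prtn3 2056 FPKM in KO and 472 FPKM in WT, whereas Cd34 averaged 3.51 FPKM in KO and 27.8 FPKM in WT, Fcgr2b 4.19 FPKM in KO and 14.9 FPKM in WT, and Fcgr3 66.8 FPKM in KO and 129 FPKM in WT. The part of these shifts in the enzyme values was not tested.

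In KO cells the RNA of 7 of the 8 enzymes was higher. Summed over the 8 enzymes, it came to 400.2, 389 and 398 FPKM in KO replicates 1, 2 and 3, against 190 FPKM, 194 FPKM and 201 FPKM in the WT replicates, a ratio of means of 2.03. All 7 enzymes tested were higher in KO, by 1.79-fold (Urod) to 3.74-fold (Cpox) in mean FPKM, and Alas2 was too scarce to test. Genes were called higher or lower where limma, fitted on log2(FPKM + 1) over the 9108 genes that averaged 1 FPKM or more, gave an adjusted p under 0.05. By that rule 38.0% of all tested genes were higher in KO and 40.4% lower, and each KO library lay above each WT library in 39.1% of tested genes and in 7 of 7 enzymes. Because so many genes differed, a call alone does not set an enzyme apart; their log2 changes exceeded those of 83.0 to 92.7% of tested genes. In RNA from sorted bulk cells, more cells of a kind that makes the RNA and more RNA per cell cannot be told apart.

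**Figure D1:**
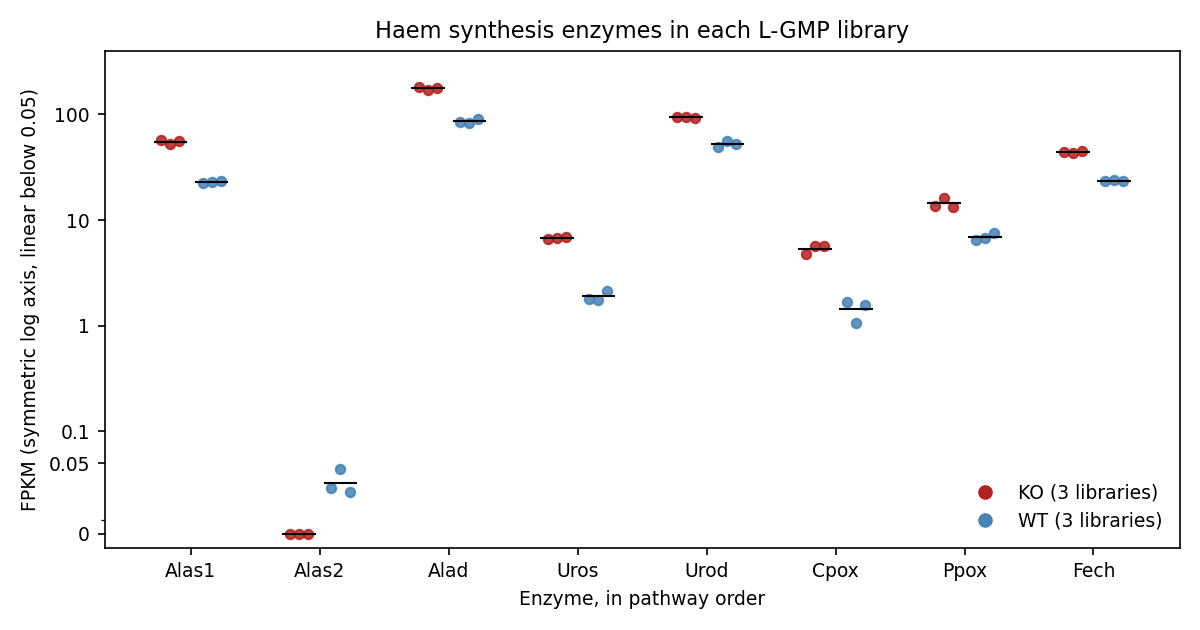
FPKM of each haem synthesis enzyme in pathway order, on a symmetric log axis, with KO libraries in red left of WT libraries in blue and black lines at the means of 3 libraries. KO points lie above WT points for 7 enzymes, and Alas2 lies at 0 in KO and under 0.05 FPKM in WT.

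Alas1 encodes the general form of the enzyme that makes 5-aminolaevulinate, the step that limits the pathway in most cells. It had 57.0, 52.5 and 56.2 FPKM in KO replicates 1, 2 and 3, against 22.4, 22.8 and 23.2 FPKM in the WT replicates. The groups did not overlap, and the lowest KO library was more than 2-fold above the highest WT library. The change was 1.24 on the log2(FPKM + 1) scale (SE 0.04, limma adjusted p = 1.68e-07), a ratio of means of 2.42. Alas1 (ENSMUSG00000032786) lies at mm10 chromosome 9, 106233455 to 106248654, minus strand, and 7.53% of its exonic bases lie across 4930500F10Rik on the other strand, which averaged 1.93 FPKM in KO and was at 0 in WT.

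Alas2, the erythroid isoenzyme, was almost unread in both genotypes. It had 0 reads in each KO library and 1, 2 and 1 reads in WT replicates 1, 2 and 3, or 0 FPKM in KO and 0.0327, 0.0460 and 0.0295 FPKM in WT. A count of 0 allows up to 3 reads, which over the 3 KO libraries would be 0.0336 FPKM, close to the WT mean of 0.0361 FPKM, so a difference was not detectable at this depth (counting error only). Alas2 supplied 0% of ALAS transcript in KO and 0.158 ± 0.0387% in WT (SD, n = 3 each; two-sided exact permutation p = 0.1, the smallest that 3 against 3 libraries can give). ALAS transcript in these cells was thus nearly all Alas1. Alas2 (ENSMUSG00000025270) lies at chromosome X, 150547375 to 150570638, plus strand, and shares 15.5% of its exonic bases with genes on the other strand, mainly Apex2, which averaged 3.69 FPKM in KO and 2.76 FPKM in WT.

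The cytosolic enzymes differed among themselves in size of change. Alad, which condenses aminolaevulinate into porphobilinogen, was the most abundant member, with 180 FPKM, 169.9 FPKM and 178 FPKM in KO replicates 1, 2 and 3, against 85.5, 82.5 and 89.9 FPKM in the WT replicates (log2 change 1.03, SE 0.04, limma adjusted p = 3.12e-07). Its KO values lay about 2-fold above its WT values with no overlap.

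Uros, which closes the tetrapyrrole ring, was scarce in WT and moved more: 6.56, 6.82 and 6.87 FPKM in KO replicates 1, 2 and 3, against 1.80, 1.76 and 2.12 FPKM in the WT replicates. That was a 3.56-fold ratio of means from 896 reads in KO and 303 in WT, and a log2 change of 1.42 (SE 0.07, limma adjusted p = 1.63e-06). Urod, which then removes carboxyl groups from the ring, had 94.3, 94.7 and 92.7 FPKM in KO replicates 1, 2 and 3, against 49.1, 55.8 and 52.9 FPKM in the WT replicates. Its rise was the smallest of the 7, at 1.79-fold (log2 change 0.83, SE 0.05, limma adjusted p = 2.54e-06). Alad (ENSMUSG00000028393) and Urod (ENSMUSG00000028684) both lie on chromosome 4, at 62509169 to 62519918 and 116989965 to 116994413, and Uros (ENSMUSG00000030979) at chromosome 7, 133686243 to 133710072, all on the minus strand and with no exonic overlap.

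The last 3 steps return to the mitochondrion. Cpox, which oxidises coproporphyrinogen, was the scarcest enzyme tested, with 4.76, 5.73 and 5.65 FPKM in KO replicates 1, 2 and 3, against 1.68, 1.06 and 1.58 FPKM in the WT replicates. It had the largest ratio of means, 3.74-fold, on which its log2 change of 1.39 (SE 0.12, limma adjusted p = 2.81e-05) is compressed by the added 1 FPKM. Every KO value was more than 2-fold above every WT value.

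Ppox, which makes protoporphyrin, had 13.7, 16.2 and 13.4 FPKM in KO replicates 1, 2 and 3, against 6.47, 6.71 and 7.51 FPKM in the WT replicates (2.09-fold, log2 change 0.97, SE 0.09, limma adjusted p = 3.10e-05). KO replicate 2 stood above the other KO libraries, and all 3 were above WT. Ppox is uncertain because 17.5% of its exonic bases lie across B4galt3 on the other strand and no source used here says whether reads were counted by strand. B4galt3 averaged 4.51 FPKM in KO and 2.21 FPKM in WT, and its part in the Ppox value was not tested.

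Fech, ferrochelatase, inserts the iron and itself carries an iron-sulphur cluster. It had 44.1, 43.0 and 44.6 FPKM in KO replicates 1, 2 and 3, against 23.2, 23.7 and 23.7 FPKM in the WT replicates (1.87-fold, log2 change 0.87, SE 0.03, limma adjusted p = 3.21e-07). Replicates lay closely together in both genotypes. Cpox (ENSMUSG00000022742) lies at chromosome 16, 58670292 to 58717636, plus strand, Ppox (ENSMUSG00000062729) at chromosome 1, 171275990 to 171281186, minus strand, and Fech (ENSMUSG00000024588) at chromosome 18, 64452914 to 64490251, minus strand. In Cpox 3.06% of exonic bases lie across Gpr15, which was at 0 in KO and averaged 1.17 FPKM in WT.

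The direction of these changes was the same under each scaling tried, but their size was not. FPKM summed to 649611 to 653819 in KO libraries and to 463683 to 475654 in WT libraries. Abundant genes weigh most in these sums. Ftl1 averaged 86126 FPKM in KO and 15465 FPKM in WT. S100a8 averaged 52072 FPKM in KO and 205 FPKM in WT, although 40.4% of all tested genes were lower in KO. Equal sums are thus not a neutral scale, and the part of these genes in the rescaled values was not tested. Rescaling the libraries to equal sums shifted the median log2 change of all tested genes to -0.41, where it was -0.02 as deposited. The median of the 7 enzymes was 1.03 as deposited, with a range of 0.83 to 1.42, and 0.56 after rescaling, with a range of 0.36 to 1.06. All 7 were still called higher after rescaling, beside 22.8% of all tested genes, and 0 were called lower, beside 59.1%. Relative to the median of all genes, their changes were 0.85 to 1.44 as deposited and 0.77 to 1.47 after rescaling.

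**Figure D2:**
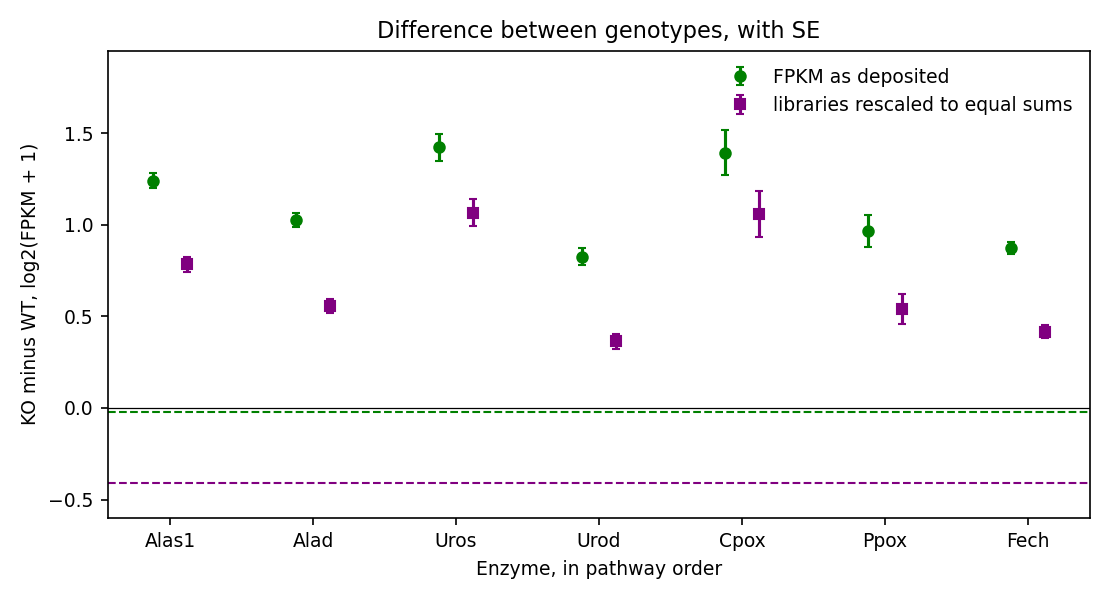
Difference KO minus WT in log2(FPKM + 1) with its SE for the 7 tested enzymes, as deposited (green circles) and with libraries rescaled to equal sums (purple squares); dashed lines are the medians of all tested genes, -0.02 and -0.41. All points lie above 0, with Uros and Cpox highest on both scales.

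Ratios within a library are free of that scaling, although the order of different genes still rests on the gene lengths used. Levels ran in the order Alad, Urod, Alas1, Fech, Ppox, Uros and Cpox in KO, and in WT in the same order except that Fech and Alas1 changed places. Fech and Alas1 overlapped in WT (23.2 to 23.7 and 22.4 to 23.2 FPKM) and were apart in KO, and no other neighbours in either order overlapped. In KO, Fech stood at 0.795 ± 0.0220 of the Alas1 level, against 1.03 ± 0.0124 in WT (SD, n = 3 each; exact permutation p = 0.1, adjusted p = 0.12 over 6 ratios to Alas1). The Alad level was 3.19 ± 0.0405 times Alas1 in KO and 3.77 ± 0.131 times in WT, and the Urod level 1.70 ± 0.0860 times in KO and 2.31 ± 0.130 times in WT, with the same p values. Relative to the enzyme that starts the pathway, the more abundant later enzymes (Alad, Urod and Fech) were thus lower in KO, in every KO library against every WT library, whereas Uros and Cpox were higher and Ppox overlapped.

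As shares of the summed FPKM of the 8 enzymes, Alas1 held 14.0 ± 0.388% in KO and 11.7 ± 0.101% in WT. Uros held 1.71 ± 0.0604% in KO and 0.970 ± 0.0771% in WT, and Cpox 1.36 ± 0.151% in KO and 0.738 ± 0.175% in WT. Urod went the other way, at 23.7 ± 0.542% in KO and 26.9 ± 1.54% in WT, and so did Fech, at 11.1 ± 0.107% in KO and 12.1 ± 0.244% in WT. For these enzymes the groups did not overlap, and the exact permutation p was 0.1 for each, the smallest possible, or 0.133 adjusted over the 8 shares. Alad (44.5 ± 0.684% in KO and 44.1 ± 1.39% in WT, exact permutation p = 0.7) and Ppox (3.65 ± 0.441% in KO and 3.53 ± 0.181% in WT, exact permutation p = 0.9) overlapped between genotypes. The 5 mitochondrial enzymes together held 30.1 ± 0.183% in KO and 28.0 ± 0.202% in WT (exact permutation p = 0.1).

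**Figure D3:**
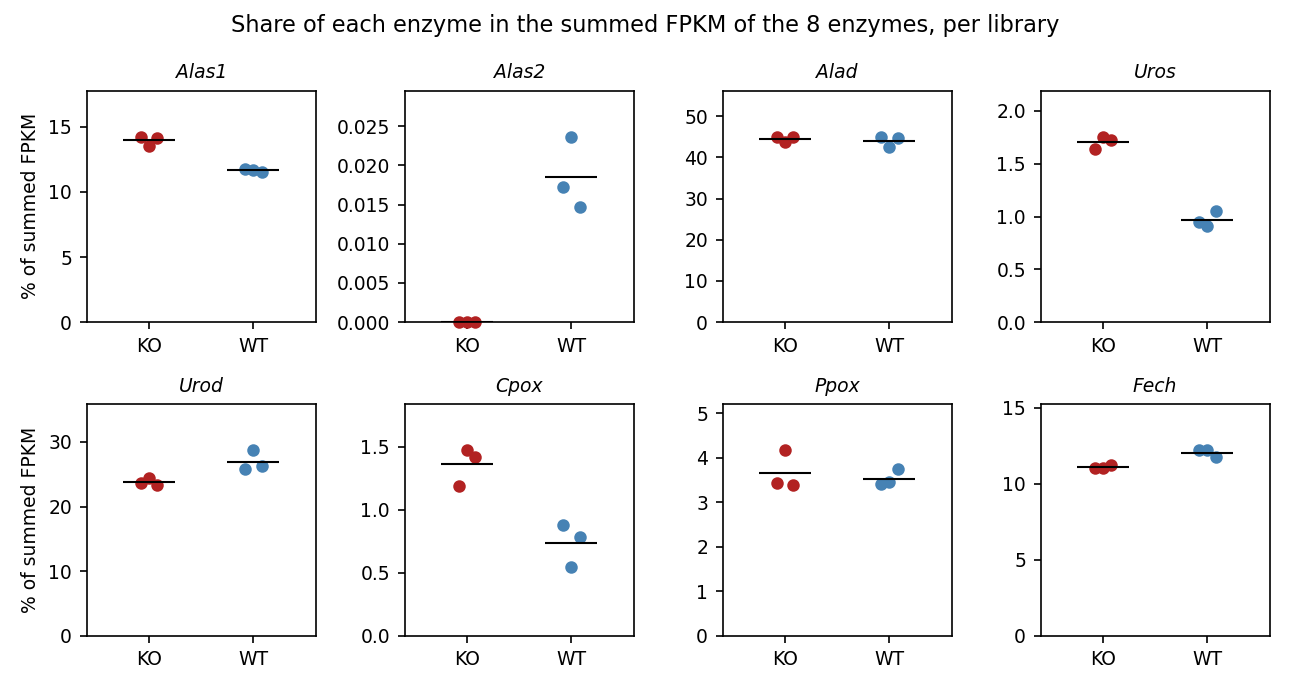
Percentage of the summed FPKM of the 8 enzymes held by each, per library, with KO in red left of WT in blue and lines at the means of 3 libraries; the vertical scales differ. Alas1, Uros and Cpox hold larger shares in KO, Urod and Fech smaller ones, and Alad and Ppox overlap.

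Genes whose 6 values moved most like those of an enzyme were sought by the root mean square difference of log2(FPKM + 1) about each gene's mean, among tested genes, for enzymes with a log2 change of at least 1. Closest to Alas1 were Pde2a, Fam173a and Acap2 (0.01, 0.02 and 0.03 log2 units), and to Alad Tubb6, Cotl1 and Sirt7 (0.03 each). Fam46a, Tcirg1 and Hmgn2 lay closest to Uros (0.03, 0.04 and 0.04), and H2-T22, Ccdc85b and Ankrd46 to Cpox (0.07, 0.07 and 0.08). The haem synthesis enzymes themselves were left out of the genes searched, so this search cannot show whether they moved like one another.

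Of 20 listed genes for succinyl-CoA supply, mitochondrial carriers and ALAS turnover, 16 were tested, 5 were higher in KO, 9 lower and 2 (Fam210b and Abcb8) did not pass, with a median log2 change of -0.46. Over all tested genes 38.0% were higher and 40.4% lower, and the counts of this list and of those that follow describe their genes without setting them apart. Slc25a38, the carrier thought to bring glycine into mitochondria for ALAS, had 3.64, 3.90 and 2.67 FPKM in KO replicates 1, 2 and 3, against 9.91, 9.45 and 10.5 FPKM in the WT replicates (log2 change -1.32, limma adjusted p = 2.49e-05). Suclg2, a subunit of the succinyl-CoA ligase, averaged 2.54 ± 0.435 FPKM in KO and 11.1 ± 0.393 FPKM in WT (log2 change -1.78, limma adjusted p = 1.88e-06).

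Slc25a28, the mitoferrin that imports iron in non-erythroid cells, averaged 2.502 ± 0.634 FPKM in KO and 4.94 ± 0.553 FPKM in WT (limma adjusted p = 0.00200). Tspo, an outer membrane protein that binds porphyrins, was the exception in size, at 2441 ± 45.2 FPKM in KO and 1223 ± 48.3 FPKM in WT (log2 change 0.997, limma adjusted p = 1.06e-07). After rescaling to equal sums 1 of the 16, Tspo, was higher and 12 were lower (median -0.83). On that scale 22.8% of all tested genes were higher and 59.1% lower, with a median of -0.41. The rescaled counts of the lists that follow are to be read beside those shares.

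Iron-sulphur cluster assembly, which ferrochelatase and the iron sensors depend on, went both ways. Of 15 listed genes 14 were tested, 5 higher, 7 lower and 2 (Glrx5 and Hscb) not past the test, with a median of -0.10, and after rescaling 1 was higher and 12 were lower. Hspa9, the mitochondrial chaperone that hands on the clusters, averaged 21.6 ± 0.970 FPKM in KO and 78.7 ± 1.05 FPKM in WT (log2 change -1.82, limma adjusted p = 2.71e-08). Lyrm4, a partner of the cysteine desulphurase, averaged 11.9 ± 1.76 FPKM in KO and 23.4 ± 0.603 FPKM in WT (limma adjusted p = 7.11e-05). Fdx1l, the ferredoxin of this pathway, averaged 93.6 ± 7.02 FPKM in KO and 241 ± 3.95 FPKM in WT (limma adjusted p = 2.98e-07), but 72.7% of its exonic bases overlap other genes and its value is uncertain. Isca1 went up, at 7.84 ± 0.667 FPKM in KO and 4.73 ± 0.352 FPKM in WT (limma adjusted p = 0.000248).

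Genes for iron uptake, storage and sensing numbered 10 tested of 11, with 5 higher in KO, 2 lower and 3 (Aco1, Tfrc and Ncoa4) not past the test (median 0.32, and -0.09 after rescaling, with 4 higher and 3 lower). Ftl1, the ferritin light chain, averaged 86126 ± 1501 FPKM in KO and 15465 ± 639 FPKM in WT (log2 change 2.48, limma adjusted p = 2.05e-09); 34.6% of its exonic bases overlap other genes, so its value is uncertain. Fth1, the ferritin heavy chain, averaged 13772 ± 82.2 FPKM in KO and 5142 ± 55.6 FPKM in WT (log2 change 1.42, limma adjusted p = 6.57e-10). Both ferritin genes have near-identical copies elsewhere in the genome, to which reads may have been split. Slc40a1, the iron exporter ferroportin, averaged 10.2 ± 0.693 FPKM in KO and 1.09 ± 0.168 FPKM in WT (limma adjusted p = 2.58e-07). Steap3, which reduces iron in endosomes, averaged 0.464 ± 0.0383 FPKM in KO and 2.56 ± 0.0999 FPKM in WT, reaching the minimum through WT alone.

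Hmox1 and Blvrb, which break haem down, had larger log2 changes than any of the enzymes that make it. Hmox1, the inducible haem oxygenase, had 190 FPKM, 182 FPKM and 201 FPKM in KO replicates 1, 2 and 3, against 25.6, 26.7 and 23.0 FPKM in the WT replicates (log2 change 2.88, limma adjusted p = 2.36e-08). Blvrb, a biliverdin reductase, averaged 148 ± 3.90 FPKM in KO and 14.8 ± 0.877 FPKM in WT (log2 change 3.24, limma adjusted p = 4.42e-09). Whether these changes differ from those of the 7 enzymes was not tested. Of 9 listed genes for haem transport and breakdown, 5 were tested and 5 were higher (median 0.57), whereas after rescaling 2 were higher (Hmox1 and Blvrb) and 2 lower (Slc48a1 and Hmox2; median 0.11). Flvcr1 and Flvcr2 of that list were not analysed here.

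Among 15 genes for proteins that hold haem or modify it, 11 were tested, 7 higher and 4 (Cox10, Hccs, Cycs and Cyc1) lower in KO, with a median of 0.91 (0.44 after rescaling, with 6 higher and 5 lower). Cybb, Epx and Tbxas1 averaged under 1 FPKM in WT and reached the minimum through KO alone, so they could be called in 1 direction and 3 of the 7 calls rest on the minimum. Cybb, the haem-bearing subunit of the NADPH oxidase, averaged 6.86 ± 0.292 FPKM in KO from 1479 reads, against 1 read in WT (limma adjusted p = 3.94e-08). Epx, eosinophil peroxidase, averaged 5.91 ± 0.892 FPKM in KO from 597 reads, with 0 reads in WT (limma adjusted p = 3.02e-07). Tbxas1, thromboxane synthase, averaged 4.43 ± 0.375 FPKM in KO and 0.281 ± 0.0411 FPKM in WT (limma adjusted p = 4.28e-07), and Ptgs1, a cyclooxygenase, 20.6 ± 1.20 FPKM in KO and 6.42 ± 0.677 FPKM in WT (limma adjusted p = 1.57e-06). Cox10, which converts haem for cytochrome oxidase, fell to 27.8 ± 1.05 FPKM in KO, against 71.8 ± 1.02 FPKM in WT (limma adjusted p = 6.87e-08). Hccs, which fixes haem to cytochrome c, fell to 4.08 ± 0.145 FPKM in KO, against 9.54 ± 0.0811 FPKM in WT (limma adjusted p = 1.64e-06); 25.9% of its exonic bases overlap another gene.

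**Figure D4:**
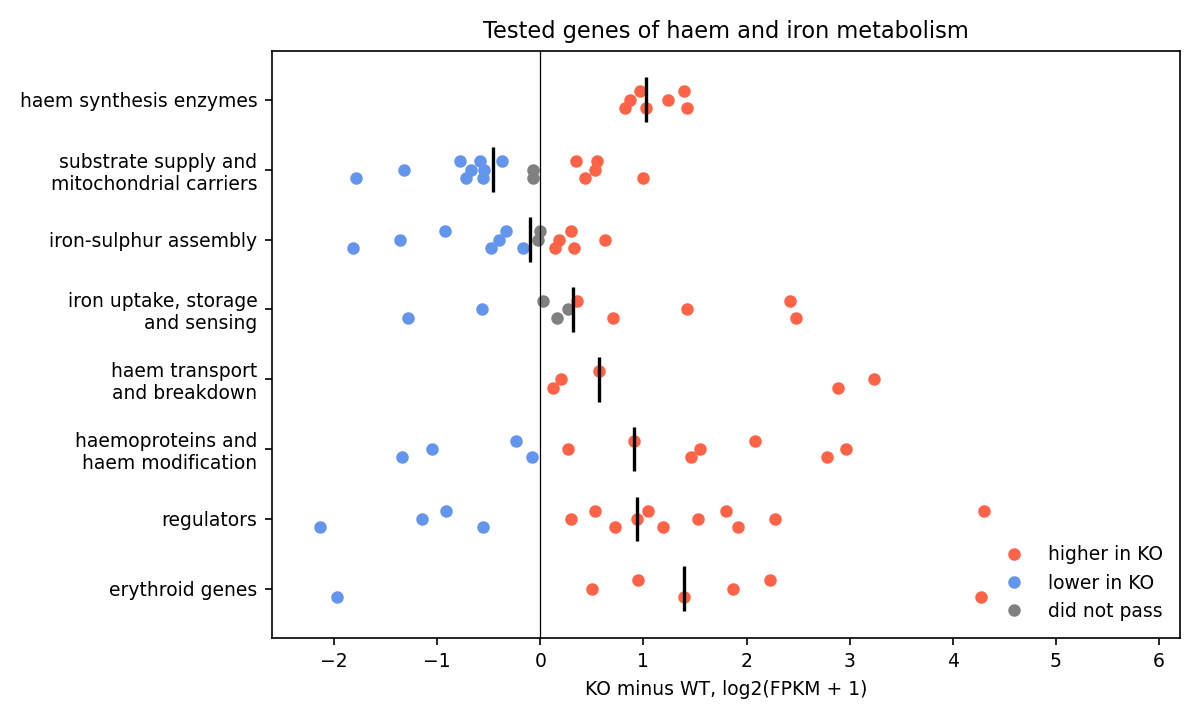
KO minus WT in log2(FPKM + 1) for each tested gene of the haem enzymes and of 7 lists around them; red points were called higher in KO, blue lower, grey did not pass, and black lines are list medians. The enzymes lie between 0.83 and 1.42, while the substrate and carrier list (median -0.46) and the iron-sulphur list (median -0.10) spread across 0.

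Of 22 listed regulators known to act on haem genes 15 were tested, 11 higher in KO and 4 (Lmo2, Nfe2l1, Mafk and Gabpa) lower, with a median of 0.94 (0.56 after rescaling, with 9 higher and 4 lower), beside 38.0% of all tested genes higher. Gata1, Klf1 and Tal1 averaged under 1 FPKM in WT and reached the minimum through KO alone, so their calls were fixed by the minimum and the count is a description. Gata1, the activator of Alas2 in erythroid cells, had 19.3, 18.3 and 18.6 FPKM in KO replicates 1, 2 and 3 and 0 reads in WT (log2 change 4.30, limma adjusted p = 4.64e-09). Klf1, an erythroid factor, had 6.27, 6.69 and 5.69 FPKM in KO, against 0.462, 0.396 and 0.601 FPKM in WT (limma adjusted p = 3.88e-07). Gata1 transcript was thus present in every KO library, in which Alas2, whose printed promoter holds a GATA match, had 0 reads. Cpox and, in its downstream window, Uros also hold a match and were higher. Alas1, Alad, Urod and Ppox, whose windows hold 0 GATA matches, were higher too. No link between Gata1 and these genes was tested.

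Gata2 averaged 13.5 ± 0.471 FPKM in KO and 2.85 ± 0.0672 FPKM in WT (limma adjusted p = 9.50e-08), and Lmo2, a partner of GATA factors, fell to 22.4 ± 1.67 FPKM in KO, against 101 ± 3.44 FPKM in WT (limma adjusted p = 6.05e-08). Nfe2l2, which encodes NRF2, averaged 21.4 ± 0.820 FPKM in KO and 6.79 ± 0.534 FPKM in WT (limma adjusted p = 5.51e-07). Bach1, a repressor that haem inactivates, lay under the minimum at 0.418 ± 0.0609 FPKM in KO and 0.167 ± 0.0184 FPKM in WT and was not tested.

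Markers of other cell types also differed between genotypes, some lists higher in KO with the enzymes and those of T and B cells lower. The summed level of 18 erythroid genes was 86.3 to 88.2 FPKM in KO and 31.1 to 33.3 FPKM in WT. Of these, 7 passed the minimum, 6 higher and 1 (Rhd) lower (median 1.39), with 5 higher and 1 lower after rescaling. Car2 reached the minimum through KO alone, so that its call was fixed by the minimum. Car2, a carbonic anhydrase, had 18.5 ± 1.10 FPKM in KO from 1666 reads, against 1 read in WT. The beta globin Hbb-bt averaged 6.57 ± 0.810 FPKM in KO and 1.09 ± 0.410 FPKM in WT, with copies of similar sequence that make it uncertain, as are the other globins. Rhd, a blood group protein of the red cell membrane, averaged 1.38 ± 0.0675 FPKM in KO and 8.35 ± 0.542 FPKM in WT. Icam4 (16.8 ± 1.97 FPKM in KO and 2.88 ± 0.996 FPKM in WT) has all its exonic bases in overlap with another gene. Rhag, a defining gene of the red cell membrane, was at 0 in all 6 libraries. Among the erythroid genes under the minimum, read numbers went both ways. Sptb had 5 reads in KO and 58 in WT, and Ermap 1 in KO and 13 in WT. Car1 had 40 reads in KO and 0 in WT, and Hemgn 39 in KO and 0 in WT.

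The summed level of 14 eosinophil, basophil and mast cell markers was 600.2 to 632 FPKM in KO and 32.9 to 39.0 FPKM in WT, with 2 of them at 0 in all KO libraries and 7 in all WT libraries. That of 10 neutrophil markers was 71422 to 72818 FPKM in KO and 317 to 332 FPKM in WT, and that of 8 megakaryocyte markers 12.9 to 14.1 FPKM in KO and 4.99 to 5.89 FPKM in WT, 6 of the 8 being at 0 in both genotypes. T cell markers summed to 0.709 to 1.23 FPKM in KO and 2.12 to 2.26 FPKM in WT, and B cell markers to 1.94 to 3.25 FPKM in KO and 51.5 to 56.8 FPKM in WT. The part of these cell types in the enzyme values was not tested.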

How the data were processed

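RNA was measured in 6 libraries of sorted L-GMP, 3 KO and 3 WT. Smart-seq2 cDNA from cells sorted into Trizol was made into Nextera XT libraries and sequenced on an Illumina NextSeq, per the labels' protocols. Per the submitters' processing notes, CASAVA, bcl2fastq, STAR 2.5.3a and DESeq2 1.18.1 were used with mm10. The authors deposited 1 table of FPKM values for 47643 genes. How reads were counted (tool, annotation, strand, multimapped reads) is not given in the sources used here. Per the file headers each column carries a library's title, which gave its group.

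limma 3.58.1 (R 4.3.3) was fitted on log2(FPKM + 1) to the genes whose 6 libraries averaged 1 FPKM or more (9108, including 7 of the 8 enzymes), with genotype as the term, a mean-variance trend, two-sided p-values and Benjamini-Hochberg adjustment over all 9108. A fold change on this scale understates the change of low genes. Each of the 7 enzymes tested averaged at least 1 FPKM in each genotype. Shares and ratios within a library were compared by two-sided exact permutation tests. Reads were recovered from the FPKM steps and GENCODE M21 exonic lengths, for 5 of the 8 enzymes as whole numbers. They gave read numbers and the limit set by 0 reads (3 reads), which take in counting error alone, because amplified reads with no molecular identifier are not separate molecules. Overlaps with other genes came from the same annotation on mm10, and promoters from RefSeq. Permutation tests used scipy 1.17.1 under Python 3.11.15, tables pandas 2.3.3 and numpy 2.4.6, and figures matplotlib 3.10.9.

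The 8 enzymes and the lists of related genes were chosen with earlier results of these data known, so counts over them are descriptions. Some genes of those lists are not reported here and were left out of the lists' counts. Named beside the enzymes were the 2 targeted genes, the factors Gata1, Klf1, Bach1 and Nfe2l2, up to 4 called genes with the largest log2 change per list, genes most alike by the stated distance, and genes of small counts. Others named for a low or contrary value were chosen after their values were seen: Cox10, Hccs, Rhag, Sptb, Ermap, Car1, Hemgn, the progenitor markers, and the genes that overlap an enzyme. The promoter motifs were chosen after the values were seen. Alternatives were another pseudocount, other minimum levels, rescaled or quantile-normalized libraries, a replicate block and leaving out each library.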

Additional observations from a re-analysis of the deposited data

How the results depend on the processing

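All 7 tested enzymes stayed higher in KO under every alternative in which they passed the minimum, in 82 of 82 values, with adjusted p of at most 0.000536 (Ppox with libraries rescaled to equal sums). Leaving out each library in turn gave 7 higher and 0 lower enzymes each time, a median log2 change of 0.997 to 1.06, 3285 to 3414 genes higher and 3414 to 3699 lower. Libraries rescaled to equal sums gave an enzyme median of 0.56 and 2074 genes higher. A minimum mean of 5 FPKM removed Uros and Cpox, which left 5 of 5 enzymes higher with a median of 0.97, and 2072 genes higher and 2383 lower of 5211. With every gene above 0 tested, 5769 genes were lower and Alas2 became 1 enzyme called lower (log2 change -0.05, adjusted p = 0.0407) on 4 WT reads. The shares of Alad and Ppox kept no direction when a library was left out: their KO minus WT differences ran from -0.378 to 0.881 percentage points for Alad (below 0 without WT replicate 2, and 0.424 with all libraries) and from -0.129 to 0.264 for Ppox (below 0 without KO replicate 2, and 0.126 with all libraries). Those of Alas1 (2.14 to 2.495), Uros (0.704 to 0.779), Cpox (0.526 to 0.709), Urod (-3.76 to -2.33) and Fech (-1.10 to -0.890) kept theirs. The Alas2 share was 0 in every KO library and above 0 in every WT library. Its difference, -0.0204 to -0.0160, could therefore only lie below 0, whichever library was left out.

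The labels do not say that equal replicate numbers mark a shared source, and deviations of same-numbered libraries from their group means correlated by -0.0166 to 0.00946 across genes. With the replicate block, 3420 genes were higher and 3620 lower, 7 enzymes were higher with a median of 1.03, and no enzyme lost its call. Not every library correlated best with its own number. Depth limits Alas2 and the few reads of genes under 1 FPKM.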
